A study of Homo sapiens with 6 samples.

Results

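The growth hormone, insulin-like growth factor (IGF) and insulin axis was followed in HEK293 cells through 10 genes, chosen by name from 60609 gene identifiers. Earlier results of these data were known when the genes were chosen. The 10 genes are the receptors GHR, IGF1R, INSR and IGF2R, the adaptors IRS1 and IRS2, the ligand IGF2, and the binding partners IGFBP2, IGFBP4 and IGFALS. HEK293 is a line derived from human embryonic kidney cells transformed with adenovirus DNA. Messenger RNA was sequenced from 3 STAT5B knockout libraries and 3 wild-type libraries. STAT5B was disrupted by CRISPR/Cas9 editing. Per the labels, clones carrying mutations on both alleles were picked by DNA sequencing and checked by protein blot. Both groups are HEK293 and were grown in DMEM with fetal bovine serum. No hormone treatment is named, and the labels do not explain the word "Sham" in the sample names of both groups, nor the name GS that the protocol also gives to knockout clones. How many clones the knockout libraries came from is not stated. Loss of STAT5B and other differences between picked clones and wild-type cells therefore cannot be told apart. The labels speak of triplicate experiments without saying that cultures were separate, so p-values measure the spread between these libraries, which may be technical.

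Growth hormone binds GHR, which activates the kinase JAK2 and through it STAT5B. In liver this raises transcription of IGF1 and of IGFALS, the acid-labile subunit that holds IGFs in a large circulating complex, and STAT5 also drives its own feedback inhibitors CISH and SOCS2. IGF1 and IGF2 act on the tyrosine kinase receptor IGF1R and insulin on its relative INSR, and both pass the signal through IRS adaptors to the PI3K-AKT and RAS pathways. IGF2R, which also sorts lysosomal enzymes, takes up and degrades IGF2, and IGFBPs bind IGFs outside the cell.

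Total estimated counts were 17494958 to 21099813 in the knockout and 17686407 to 20279181 in the wild type, and mitochondrial transcripts took 1.38% to 2.43% of them in the knockout and 1.67% to 1.97% in the wild type. STAT5B mRNA was still present in the knockout. It averaged 61.8 ± 1.3 CPM (counts scaled to 1000000 per library with TMM factors) in the knockout and 68.0 ± 2.98 CPM in the wild type (SD, n = 3 each), with an edgeR adjusted p of 0.0468, a call that ended in 12 of 16 alternative settings, including without any 1 library other than wild-type replicate 2 (adjusted p 0.061 to 0.16). A count over a whole gene does not show a small mutation, so it does not check the genotype. Of 7 kidney development genes, 6 were above the level tested, with a summed level of 116 to 118 CPM in the knockout and 113 to 122 CPM in the wild type, and EYA1 called higher and SALL1 lower in the knockout. The 6 hepatocyte markers summed to at most 0.24 CPM in the knockout and at most 0.262 CPM in the wild type, with SERPINA1 and FGB at 0. The 3 neuronal filament genes known in HEK293 summed to 391 to 425 CPM in the knockout and 625 to 653 CPM in the wild type, with NEFM lower, and the 3 adipocyte markers to 0.966 to 1.31 CPM in the knockout and 0.629 to 0.79 CPM in the wild type, with LEP at 0. The part of these differences in the results was not tested. Muscle, beta cell, blood and endothelial markers each summed to under 1 CPM in every library.

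Per transcript length, IGFBP2 was the most abundant member and IGFALS was close to absent. IGFBP2 averaged 128 TPM (transcripts scaled by length to a sum of 1000000) over the 6 libraries, IGF2R 48.8, IGF1R 21.3 and INSR 9.08 TPM. The ranges of these 4 genes over the libraries did not overlap, so their order held in every library. IGFBP4 (2.99 TPM), GHR (2.89 TPM), IRS2 (2.82 TPM), IRS1 (1.63 TPM) and IGF2 (1.53 TPM) followed, and neighbours in the order of these 5 overlapped. IGFALS came last and averaged 0.0178 TPM. For scale, the adaptor IRS4, which is not a member, averaged 272 TPM in the knockout and 324 TPM in the wild type, above every member.

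**Figure D1:**
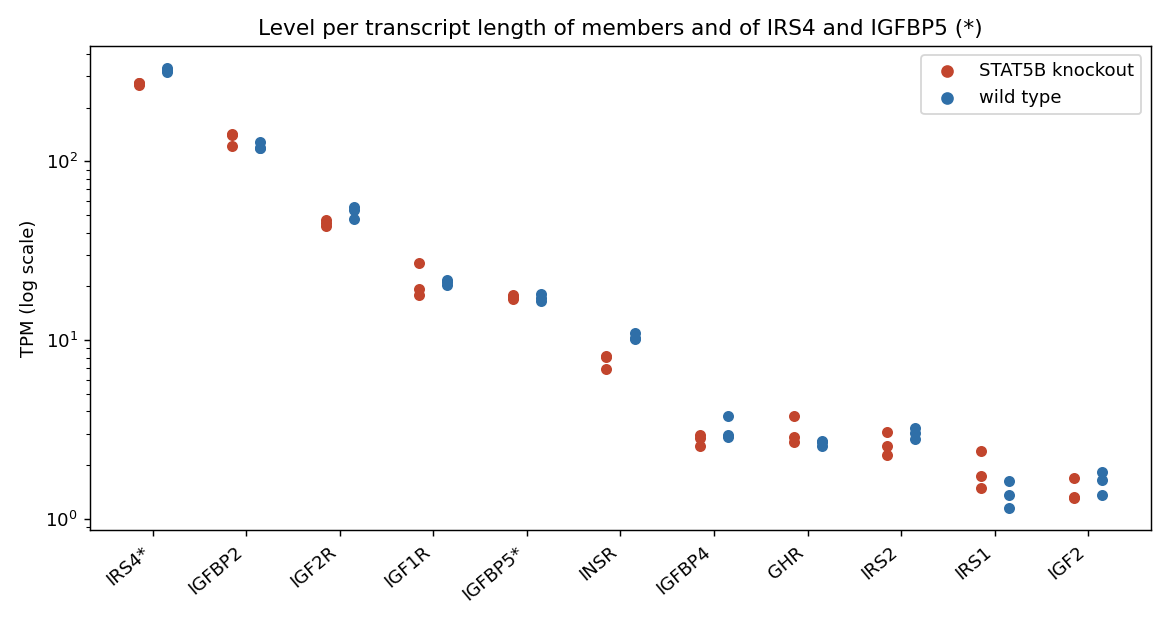
TPM on a log axis for 9 members and for IRS4 and IGFBP5, with 1 point per library, knockout left of wild type for each gene. IRS4 and IGFBP2 lie at the top, and IGFBP4, GHR, IRS2, IRS1 and IGF2 form a low group whose points overlap.

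Of the 9 members that passed the filter on low counts, IGFBP2 rose in the knockout, INSR and IGF2R fell, and 6 did not pass an edgeR adjusted p of 0.05. Among all 15958 genes tested, 23.4% passed, 12.1% as higher and 11.4% as lower. The members' share of 33.3% is thus near the background, and with 9 genes it is not a result about the axis. Their median log2 fold change was −0.11, against 0.0063 for all genes tested. The CPM of the 2 groups did not overlap for 5 of the 9 members, while 38.6% of all tested genes showed no overlap. IGFALS was under the level tested. The same 3 members passed with RLE scaling (23.4% of all genes passed), limma-voom (22.8%), the replicate block (22.9%), no filter (14.2%), a filter of 1 CPM in 3 libraries (25.8%), and without knockout replicate 2 (18.8%) or wild-type replicate 3 (18.6%). INSR and IGF2R passed with DESeq2 (20.5%) and without knockout replicate 1 (17.4%) or 3 (21.9%). INSR alone passed with offsets for each library's deposited effective length (11.0%), with length and GC offsets (20.7%), on log2(TPM + 1) or log2(TPM + 0.1) (10.2% each), and without wild-type replicate 1 (16.0%) or 2 (16.5%).

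INSR, the insulin receptor (ENSG00000171105, chr19:7112255-7294034, minus strand, hg38), fell and had the smallest p among the members. It had 41.6, 40.7 and 44.2 CPM in the knockout, against 52.4, 53.9 and 50.2 CPM in the wild type. Every knockout library was below every wild-type library, and the gap between the groups was wider than the range within either. In edgeR the log2 fold change was −0.31 ± 0.053 (SE, adjusted p = 0.000826), a change of −19.2% (95% interval −25.3% to −12.6%). The call held in all 16 alternative settings. With offsets for length and GC content the log2 fold change was −0.16 (adjusted p = 0.033), a smaller difference by more than 1.5 times. In bulk RNA, fewer cells with the transcript and less of it per cell cannot be told apart.

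IGF1R, the receptor that carries most IGF1 and IGF2 signals, did not pass the test (ENSG00000140443, chr15:98648539-98964530, plus strand). It had 98.6, 103 and 103 CPM in the knockout, against 119, 107 and 105 CPM in the wild type. The knockout values were all lower, but 2 of them lay just under the lowest wild-type value. In edgeR the log2 fold change was −0.11 ± 0.047 (SE, adjusted p = 0.0989), with an unadjusted 95% interval of −13.9% to −0.88%. Its sign turned with offsets for effective length (0.11) or for length and GC content (0.044) and on log2(TPM + 1) (0.0040), none of which passed, and it was −0.060 without wild-type replicate 1.

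IGF1R and INSR form hybrid receptors, so their balance was compared within each library. IGF1R exceeded INSR by 2.39, 2.60 and 3.35 times in TPM in the knockout and by 2.07, 1.84 and 2.13 times in the wild type. The 3.35 is of knockout replicate 3, where the length given to IGF1R was 6207 bases, against 8241 and 9040 bases in knockout replicates 1 and 2. On the log2 scale the ratio was 1.46 ± 0.25 in the knockout and 1.01 ± 0.11 in the wild type (SD, n = 3 each). The groups did not overlap, and a two-sided exact permutation test gave p = 0.1, the smallest that 3 against 3 libraries allow. The same ratio of CPM was 1.27 ± 0.061 in the knockout and 1.08 ± 0.098 in the wild type on the log2 scale, again with no overlap and an exact p of 0.1. The difference therefore cannot pass a threshold of 0.05 in this design. On the log2 scale it was 0.45 in TPM and 0.19 in CPM.

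IGF2R, the clearance receptor for IGF2, fell slightly (ENSG00000197081, chr6:159969099-160113507, plus strand). It had 261, 258 and 260 CPM in the knockout, against 291, 286 and 273 CPM in the wild type. The knockout libraries were nearly level with each other, and all lay below the wild type. In edgeR the log2 fold change was −0.12 ± 0.033 (SE, adjusted p = 0.0132), or −8.27%. The call ended without wild-type replicate 1 (0.0692) or replicate 2 (0.0589) and on TPM and with effective-length offsets, and with offsets for length and GC content the sign turned (log2 fold change 0.030, adjusted p = 0.512). CHP1P2, a processed pseudogene on the same strand inside IGF2R, held 96 counts in the knockout and 143 in the wild type, against 14520 and 16147 for IGF2R.

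GHR, the growth hormone receptor upstream of STAT5B, was expressed at a low level (ENSG00000112964, chr5:42423777-42721878, plus strand). It had 10.0, 7.58 and 7.77 CPM in the knockout, against 6.94, 7.39 and 6.94 CPM in the wild type. The groups did not overlap, but knockout replicate 1 stood above the other knockout libraries, which were close to the wild type. The log2 fold change of 0.25 ± 0.13 (SE) did not pass (edgeR adjusted p = 0.18, interval −1.59% to 43.5%). Without knockout replicate 1 it was 0.11 (adjusted p = 0.574). SERBP1P6, a processed pseudogene on the other strand within GHR, held 183 counts in the knockout and 168 in the wild type, against 470 and 405 for GHR. No source used here says whether the counting used strand, so reads of this pair may not be separable.

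**Figure D2:**
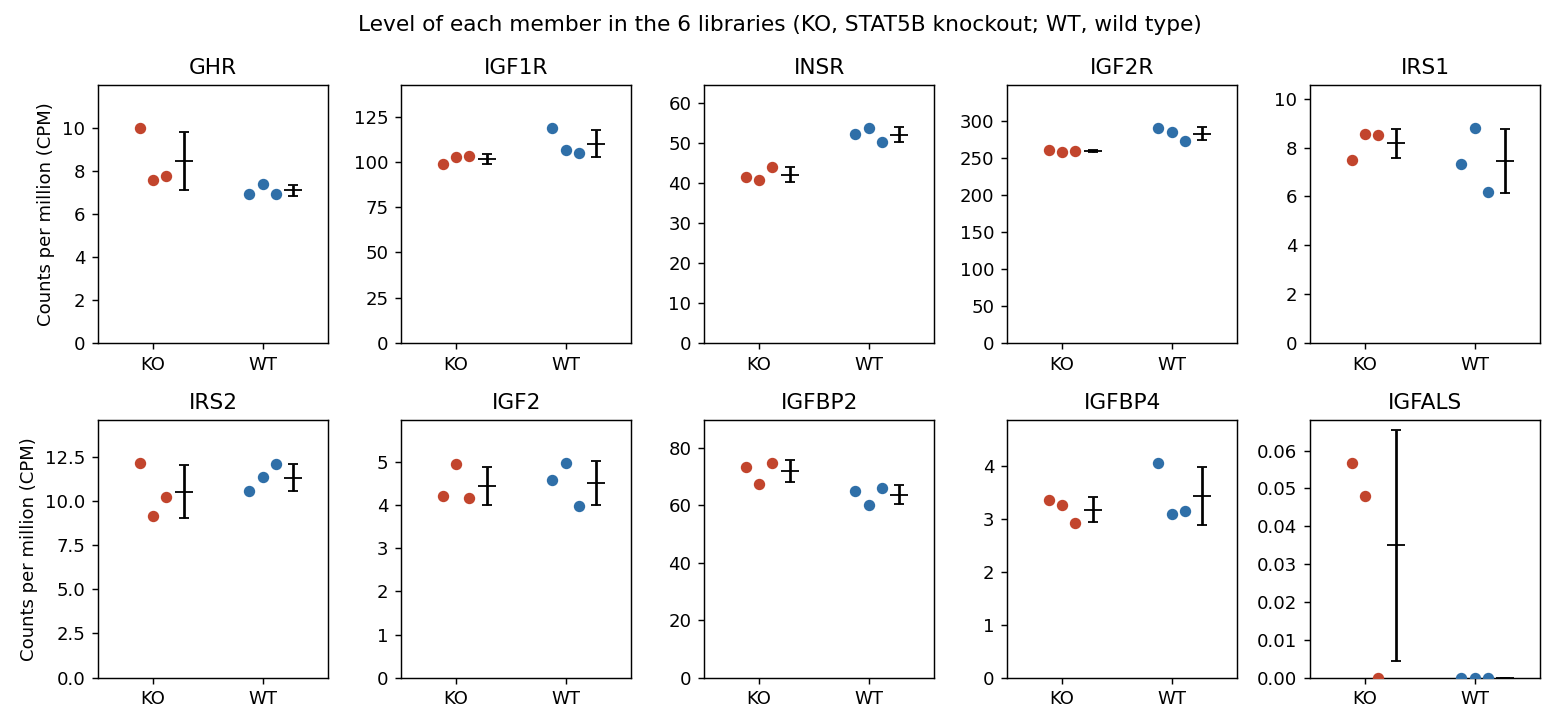
CPM of the 10 members, 1 point per library with the mean ± SD (n = 3) beside each group, knockout left of wild type and each axis starting at 0. INSR shows the widest gap between its groups relative to their spread, while IRS1, IRS2, IGF2 and IGFBP4 overlap and IGFALS rests on single counts.

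Neither classical adaptor passed the test. IRS1, the first described insulin receptor substrate (ENSG00000169047, chr2:226731317-226799759, minus strand), had 7.50, 8.54 and 8.51 CPM in the knockout, against 7.34, 8.81 and 6.20 CPM in the wild type. IRS2, which also carries insulin and IGF signals and is a FOXO target (ENSG00000185950, chr13:109752698-109786568, minus strand), had 12.2, 9.17 and 10.2 CPM in the knockout, against 10.6, 11.3 and 12.1 CPM in the wild type. The groups overlapped for both genes. The log2 fold changes were 0.14 ± 0.13 and −0.11 ± 0.11 (SE), with edgeR adjusted p of 0.497 and 0.517. The intervals reached from −9.73% to 34.5% for IRS1 and from −21.7% to 9.29% for IRS2, and neither gene passed under any of the 16 alternatives. The IRS1 log2 fold change was 0.28 (adjusted p = 0.192) when wild-type replicate 2 was left out and 0.020 (0.942) when replicate 3 was, and 0.52 (0.137) when effective length entered as offsets. That of IRS2 was −0.23 or −0.017 when knockout replicate 1 or 2 was left out, −0.063 when wild-type replicate 3 was, and 0.062 with length and GC offsets.

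Among IRS1, IRS2 and IRS4, the transcripts of these cells were almost entirely those of IRS4, an X-linked relative. IRS4 made up 98.4% ± 0.319 of the summed TPM of IRS1, IRS2 and IRS4 in the knockout and 98.7% ± 0.0665 in the wild type (SD, n = 3 each). IRS4 itself fell, with 655 ± 15 CPM in the knockout and 736 ± 18.7 CPM in the wild type, a log2 fold change of −0.17 (SE 0.033, edgeR adjusted p = 0.00194). The call held in all 16 alternatives, with −0.11 under length and GC offsets. An unnamed gene on the same strand overlaps IRS4 and held 2166 counts in the knockout and 2569 in the wild type, so the split of reads between the pair is uncertain. The IRS1 share was 0.880%, 0.624% and 0.540% in the knockout and 0.413%, 0.485% and 0.359% in the wild type, without overlap (two-sided exact permutation p = 0.1). As a share of estimated counts it was 1.21% ± 0.0703 in the knockout and 0.984% ± 0.147 in the wild type, again without overlap (exact p = 0.1).

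Among the ligands listed, IGF2 was the only one with more than single counts. IGF2, a fetal growth factor from an imprinted locus (ENSG00000167244, chr11:2129112-2149603, minus strand), had 4.20, 4.94 and 4.17 CPM in the knockout, against 4.57, 4.98 and 3.99 CPM in the wild type. The knockout values lay within the wild-type range, and the log2 fold change was −0.018 ± 0.16 (SE, edgeR adjusted p = 0.953, interval −22.0% to 25.2%). INS-IGF2, the readthrough gene that shares exons with IGF2, and INS had 0 counts in all 6 libraries. H19, the noncoding neighbour that is imprinted in the opposite sense, had 6 counts over the knockout libraries and 6 over the wild-type libraries. IGF1 had 0 counts in the knockout and 1 count in the wild type, and GH1, GH2, PRL and the prolactin receptor PRLR had 0 counts in every library.

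IGFBP2, the main binding protein of these cells (ENSG00000115457, chr2:216632828-216664436, plus strand), rose slightly. It had 73.2, 67.5 and 74.8 CPM in the knockout, against 64.9, 60.1 and 66.1 CPM in the wild type. The groups did not overlap, though the lowest knockout library was close to the highest wild-type library. In edgeR the log2 fold change was 0.17 ± 0.052 (SE, adjusted p = 0.0292), or 12.6% (95% interval 4.15% to 21.7%). The call ended in 9 of 16 alternatives, among them DESeq2 (0.0591), both kinds of offset (0.0613 and 0.0605), TPM with either pseudocount (0.216 and 0.217) and edgeR without knockout replicate 1 (0.0934) or 3 (0.0908) or wild-type replicate 1 (0.0651) or 2 (0.142), and the direction held in all 16.

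The share of IGFBP2 in the binding protein pool did not differ beyond the spread between libraries. IGFBP2 took 85.5%, 83.5% and 86.0% of the summed TPM of IGFBP1 to IGFBP7 in the knockout, against 82.3%, 83.9% and 85.5% in the wild type (two-sided exact permutation p = 0.6). Of their estimated counts, which do not allow for length, it took 49.98% ± 2.10 in the knockout and 49.2% ± 1.49 in the wild type (exact permutation p = 0.7, SD, n = 3 each). IGFBP5, encoded beside IGFBP2 on chromosome 2, took 11.0% ± 0.854 of the summed TPM in the knockout and 11.9% ± 0.842 in the wild type. In estimated counts it was close to IGFBP2, with 3737 in the knockout and 3459 in the wild type, against 4004 and 3641 for IGFBP2. IGFBP1, the liver form that insulin represses, had 0 counts. IGFBP4, an inhibitor of IGF action (ENSG00000141753, chr17:40443461-40457731, plus strand), had 3.35, 3.26 and 2.91 CPM in the knockout, against 4.06, 3.09 and 3.15 CPM in the wild type. Its groups overlapped, and the log2 fold change of −0.11 ± 0.19 (SE) did not pass (edgeR adjusted p = 0.733).

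IGFALS, a liver target of growth hormone through STAT5B (ENSG00000099769, chr16:1790413-1794971, minus strand), had 1, 1 and 0 counts in the knockout libraries and 0 counts in each wild-type library. Both groups are under the floor of 3 counts, so no fold is given, and no difference was detectable at this depth. SPSB3, a gene that overlaps IGFALS on the same strand, held 785 counts in the knockout and 649 in the wild type. STAT5A, the close relative of STAT5B, had about 1 estimated count in each knockout library and 0 in the wild type.

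Promoter sequence is shown for IGFALS, the member that STAT5B is known to drive, for CISH, a STAT5 feedback gene with several copies of the motif, and for INSR, the member with the smallest p. Each sequence is the RefSeq window of 250 bases before to 50 after an annotated start (GRCh38.p14), 5′ to 3′ on the gene's strand. Capitals mark the palindromic STAT5 motif TTCNNNGAA, which reads the same on both strands. The windows are chr16:1794859-1795158 for IGFALS, chr3:50611725-50612024 for CISH and chr19:7294365-7294664 for INSR, all on the minus strand.
IGFALS: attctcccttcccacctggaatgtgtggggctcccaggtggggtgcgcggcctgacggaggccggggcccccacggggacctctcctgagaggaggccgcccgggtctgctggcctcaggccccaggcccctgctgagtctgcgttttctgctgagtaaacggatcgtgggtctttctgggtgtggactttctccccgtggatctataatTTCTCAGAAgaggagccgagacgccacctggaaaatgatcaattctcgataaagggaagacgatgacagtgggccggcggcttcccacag
CISH: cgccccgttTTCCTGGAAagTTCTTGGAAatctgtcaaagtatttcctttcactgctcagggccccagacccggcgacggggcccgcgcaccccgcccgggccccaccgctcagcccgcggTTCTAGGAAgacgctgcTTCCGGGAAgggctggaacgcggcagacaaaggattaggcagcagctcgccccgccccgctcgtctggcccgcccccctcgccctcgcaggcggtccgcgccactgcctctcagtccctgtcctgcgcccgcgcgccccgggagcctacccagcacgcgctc
INSR: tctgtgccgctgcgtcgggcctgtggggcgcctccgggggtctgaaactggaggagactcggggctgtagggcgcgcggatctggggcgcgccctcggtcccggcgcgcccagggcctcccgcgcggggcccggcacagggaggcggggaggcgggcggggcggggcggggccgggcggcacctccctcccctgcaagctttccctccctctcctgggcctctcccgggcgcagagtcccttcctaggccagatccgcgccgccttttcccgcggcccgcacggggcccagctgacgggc
IGFALS held 1 match, starting at base 211 of its window, and CISH held 4, while the INSR window held none. Of all 35116 windows in the RefSeq table, 7.66% held the motif and 0.0199% held 4 or more matches. CISH was shown as a gene with several copies, so its 4 matches are not a finding. For 9 members the table gave 17 windows, and 2 of them held a match, the other being 1 of 7 windows of GHR. The INSR window had a GC content of 78.3%, against a median of 58.7% over all windows. A match of letters does not show binding, and no match says nothing of the factor. CISH had 97 counts over the knockout libraries and 97 over the wild-type libraries, with a log2 fold change of 0.021 (SE 0.25, edgeR adjusted p = 0.963), and its sign turned in 6 of 15 alternatives. SOCS2, the feedback inhibitor of GHR, rose by 0.59 on the log2 scale (SE 0.083, adjusted p = 0.000179), with 15.9 ± 0.313 CPM in the knockout and 10.5 ± 0.511 CPM in the wild type.

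To show the chromosomal surroundings, each member was set beside the 25 tested genes on either side of it. Of all 15958 genes tested, 12.1% were called higher and 11.4% lower. INSR had 50 neighbours with a median log2 fold change of −0.067, of which 1 rose and 5 fell. Neither count exceeds its share over all genes. IGF1R lies in a stretch of chromosome 15 where 11 neighbours rose and 1 fell, with a median of 0.056, which is opposite in sign to its own −0.11. IGFBP4 lies on chromosome 17 in a stretch of neighbours that ends with STAT5B itself, and these had the lowest median among the members, −0.17, with 21 falls against 1 rise. Its own value was −0.11. With 10 or 50 tested genes on either side, the median around IGFBP4 was −0.13 or −0.12. The neighbours of IGFBP2 had a median of −0.032, against 0.17 for IGFBP2, and those of IGF2R a median of 0.016, against −0.12. The median around IGFBP2 was −0.0059 with 10 and −0.057 with 50 tested genes on either side. Around IGF1R it was 0.046 with 10 and 0.099 with up to 50. No member was tested apart from its neighbours.

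**Figure D3:**
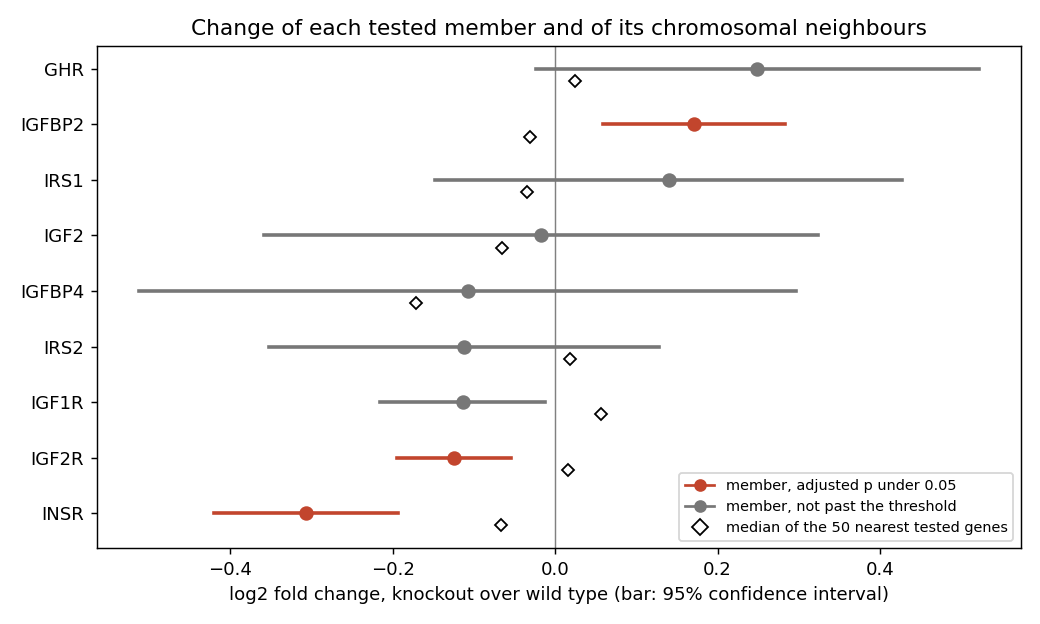
Log2 fold change of the 9 tested members, knockout over wild type, with 95% confidence intervals (circles and bars, not adjusted for the number of genes), and the median of the 50 nearest tested genes (diamonds). INSR at −0.31 lies below its neighbours at −0.067, and IGFBP4 lies near its own at −0.17.

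The genes most like INSR across the 6 libraries were BRWD1, WDFY3 and SCN3B, among 11007 genes with at least 5 CPM. Likeness was the root mean square distance of log2 CPM after centring each gene, which was 0.0172, 0.0176 and 0.0184. Their log2 fold changes were −0.29, −0.31 and −0.29, with edgeR adjusted p of 0.000127, 0.00055 and 0.0643. Since INSR differs between the groups, this measure picks genes with a difference of the same size.

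The files also give each gene a length in each library, by which TPM is scaled, and for IGF1R and IRS1 it varied widely. IGF1R was given 8241, 9040 and 6207 bases in the knockout, against 9556, 8965 and 8233 bases in the wild type. Its TPM was 19.2, 18.0 and 27.2 in the knockout, against 21.3, 20.3 and 21.6 in the wild type, so the library with the shortest length, knockout replicate 3, had the highest TPM although its CPM was level with replicate 2. IRS1 was given 5368, 8195 and 9705 bases in the knockout, against 9705 bases in each wild-type library, and its TPM was 2.40, 1.74 and 1.5 in the knockout, against 1.36, 1.64 and 1.15 in the wild type. Longest over shortest length was 1.81 for IRS1 and 1.54 for IGF1R, a ratio that 4.88% and 9.0% of all tested genes exceeded, with a median of 1.10. IRS2 and IGFBP4 had a single length in all libraries. The lengths of the 2 groups overlapped for every member, and whether they reflect a change of isoform or the assignment of few reads was not tested.

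**Figure D4:**
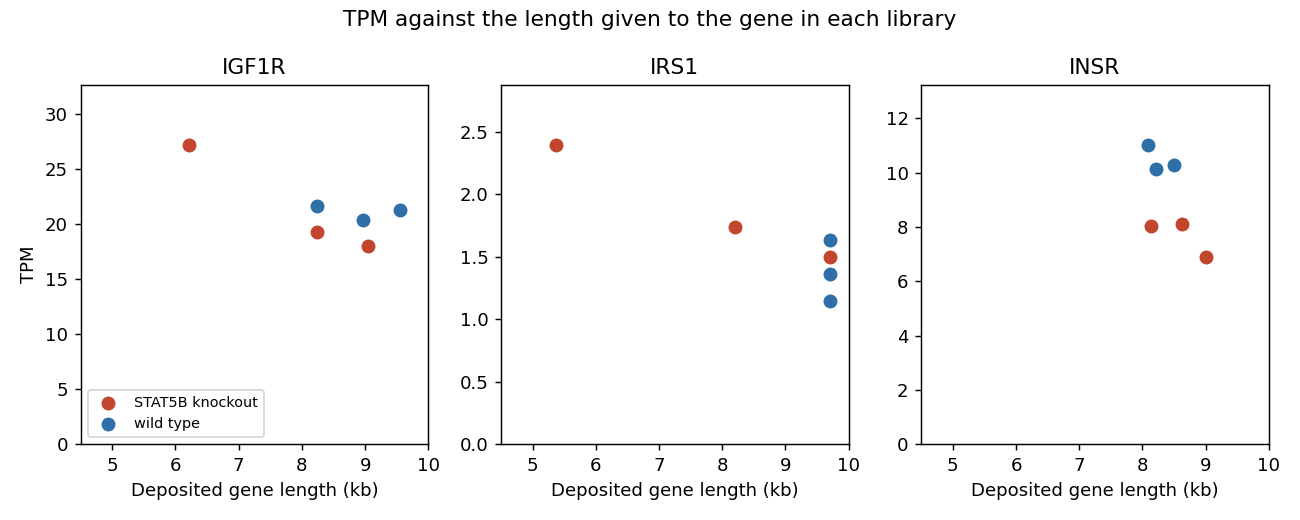
TPM against the gene length deposited for each library, for IGF1R, IRS1 and INSR, with 1 point per library. The highest TPM of IGF1R and of IRS1 belongs to the knockout library with the shortest length, whereas the INSR libraries separate by group at similar lengths.

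Around the members, 114 further genes of the axis were followed, and of 86 tested, 15 rose and 21 fell in the knockout in the main edgeR test. That is 41.9%, against 23.4% of all tested genes, with a median log2 fold change of −0.069. The lists were chosen with earlier results of these data known. Among genes with a mean of at least 10 CPM, 35 of 75 pathway genes passed (46.7%), against 32.2% of all genes at that level. The share and its direction depended on the scale. On log2(TPM + 1), 1 passed as higher and 8 as lower, or 10.5% against 10.2% of all genes. With effective-length offsets 8 were higher and 6 lower (16.3%, against 11.0% of all genes), and with length and GC offsets 15 were higher and 11 lower (30.2%, against 20.7%).

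Among 11 tested genes of growth hormone signalling and its brakes, SOCS2 rose, STAT5B and the phosphatase PTPN11 fell and 8 did not pass, with a list median of −0.11. The share called, 27.3%, is near the 23.4% of all tested genes. PTPN11, which encodes SHP2, averaged 352 ± 13.0 CPM in the knockout and 405 ± 4.15 CPM in the wild type (log2 fold change −0.20, SE 0.033, edgeR adjusted p = 0.000596). Of 18 further receptor adaptors, 4 rose (SHC1, SHC2, GRB10 and NCK1), 4 fell (IRS4, SH2B1, CBL and CRKL) and 10 did not pass. The share called was 44.4%, against 23.4% of all tested genes and 32.2% of those with at least 10 CPM, and the list median was 0.0098. With 18 genes this share is not a result about the list. GRB10 and CRKL are named after their values were seen. CBL, a ubiquitin ligase that marks receptor kinases for degradation, averaged 121 ± 3.15 CPM in the knockout and 154 ± 7.64 CPM in the wild type, with a log2 fold change of −0.34 that was −0.16 with length and GC offsets. SHC1, an adaptor to the RAS pathway, rose by 0.26 and SH2B1, an adaptor of JAK2 and INSR, fell by 0.26 on the log2 scale. The SHC1 call ended on log2(TPM + 1) (0.078, adjusted p = 0.631) and when effective length entered as offsets (0.18, adjusted p = 0.286). The calls of SOCS2, PTPN11, CBL and SH2B1 held in all 16 alternatives, whereas that of SHC2 ended without knockout replicate 1 (adjusted p = 0.107) or wild-type replicate 2 (0.101) or 3 (0.052), and that of NCK1 without knockout replicate 1 (0.0647) or wild-type replicate 3 (0.0691), and on log2(TPM + 1) (0.13 on the log2 scale).

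Of 6 tested binding proteins and proteases beside the members, IGFBP5 and STC2 rose at an edgeR adjusted p under 0.05 and 4 did not pass. The share called was 33.3%, against 23.4% of all tested genes, and with 6 genes it is not a result about the list. The list median was 0.16. STC2, an inhibitor of the IGFBP4 protease PAPPA, averaged 175 ± 17.3 CPM in the knockout and 127 ± 24.1 CPM in the wild type (log2 fold change 0.46, adjusted p = 0.00462). In TPM it averaged 76.3 in the knockout and 82.5 in the wild type, and its sign turned with effective-length offsets (log2 fold change −0.023, adjusted p = 0.936). The length given to STC2 was 3598, 3528 and 3969 bases in the knockout, against 2663, 2732 and 2680 bases in the wild type, without overlap. What lies behind this difference in length was not tested. IGFBP5 rose by 0.14 (adjusted p = 0.0404), and this call ended in 9 of 16 alternatives, including without any 1 library other than knockout replicate 3 (0.0577 to 0.139). Its log2 fold change was 0.0085 on log2(TPM + 1), with 17.4 TPM in the knockout and 17.3 TPM in the wild type, and 0.24 with length and GC offsets.

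Of 26 tested genes of the PI3K-AKT limb, which receptors and adaptors feed, 4 rose, 8 fell and 14 did not pass, with a median of −0.10. The share called was 46.2%, against 23.4% of all tested genes and 32.2% of those with at least 10 CPM. PIK3R3, a regulatory subunit of PI3K, rose to 153 ± 4.62 CPM in the knockout, against 121 ± 4.66 CPM in the wild type (log2 fold change 0.34, edgeR adjusted p = 3.7e-05), and RHEB, the activator of mTORC1, rose by 0.28. TSC1, which restrains RHEB, fell by 0.25, PHLPP2, an AKT phosphatase, by 0.21 and RPTOR, a subunit of mTORC1, by 0.24 on the log2 scale. EIF4EBP1, a translation repressor under mTORC1, rose by 0.24. The calls of PHLPP2 and RPTOR each ended in 4 of 16 alternatives, with −0.11 (adjusted p = 0.0893) and −0.10 (0.128) under length and GC offsets. On log2(TPM + 1) the calls of PIK3R3 (adjusted p = 0.0685), RHEB (0.0883), TSC1 (0.0518) and EIF4EBP1 (0.155) ended too. Of 12 tested FOXO targets that respond to insulin, TRIB1 rose by 0.22 and INSR and TXNIP fell, TXNIP by 0.24, while 9 did not pass, IRS2 among them (25% called, near the 23.4% of all genes). The TXNIP call ended in 12 of 16 alternatives, including without any 1 library other than wild-type replicate 1 (adjusted p 0.0866 to 0.169). That of TRIB1 ended with limma on log2(TPM + 1) (adjusted p = 0.0812) and log2(TPM + 0.1) (0.0796).

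Among 6 tested IGF2 mRNA-binding proteins and imprinted genes, PLAGL1 rose and IGF2BP1, IGF2BP2 and KCNQ1OT1 fell, while 2 did not pass. The share called was 66.7%, against 23.4% of all tested genes, and with 6 genes it is not a result about the list. IGF2BP1, which binds IGF2 and other mRNAs, averaged 474 ± 10.8 CPM in the knockout and 583 ± 12.6 CPM in the wild type (log2 fold change −0.30, edgeR adjusted p = 2.6e-05), which was −0.15 with length and GC offsets, whereas IGF2 itself did not pass. On log2(TPM + 1) the PLAGL1 call ended (adjusted p = 0.232), and with effective-length offsets that of IGF2BP2 (0.0648). KCNQ1OT1 averaged 26.5 ± 1.98 CPM in the knockout and 42.2 ± 12.7 CPM in the wild type with overlapping groups. Its log2 fold change of −0.67 was −0.49 without wild-type replicate 2 (adjusted p = 0.0597) and −0.031 with offsets for length and GC content (adjusted p = 0.838). Of 9 tested genes for insulin processing, clearance and glucose uptake, CPE and SLC2A1 rose, LNPEP, TBC1D4 and SORT1 fell and 4 did not pass. The share called was 55.6%, against 23.4% of all tested genes, and with 9 genes it too is not a result about the list. TBC1D4, the AKT substrate that governs GLUT4 traffic, averaged 69.9 ± 2.75 CPM in the knockout and 91.8 ± 0.424 CPM in the wild type (log2 fold change −0.39, adjusted p = 2.1e-05), and the glucose transporter SLC2A1 rose by 0.44. Of the others, the SORT1 call ended without any 1 library other than knockout replicate 3 (0.0603 to 0.158), and the LNPEP call without knockout replicate 2 (0.0747) or wild-type replicate 1 (0.0616) or 2 (0.121), and those of CPE (0.106) and SLC2A1 (0.0966) ended on log2(TPM + 1). With length and GC offsets the log2 fold change was −0.0077 for SORT1 (edgeR adjusted p = 0.908) and −0.039 for LNPEP (0.632). The calls of SORT1 and LNPEP also ended with effective-length offsets and on both TPM scales.

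**Figure D5:**
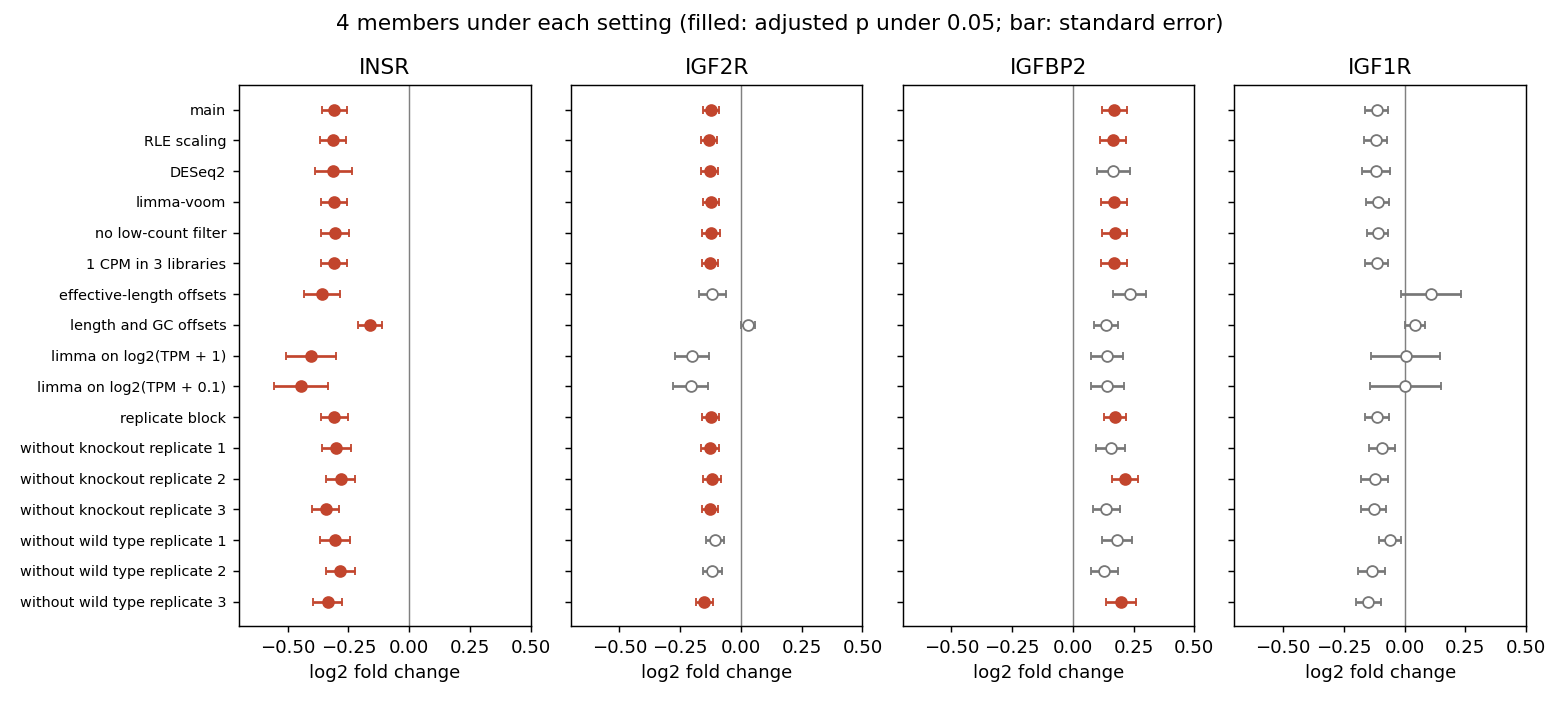
Log2 fold change of INSR, IGF2R, IGFBP2 and IGF1R, knockout over wild type, under the main test and 16 alternatives, with standard errors, filled where the adjusted p was under 0.05. INSR is filled throughout, IGF2R and IGFBP2 in part, and IGF1R in none, with its sign turning where length enters the scale.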

How the data were processed

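Libraries from an mRNA kit, of 3 STAT5B knockout and 3 wild-type HEK293 samples, were sequenced. The authors deposited, per the file headers, an estimated count, a TPM value and a length for each gene and library. The submitters' processing notes name FastQC, fastp, DRAGEN, Picard and hg38; no source used here gives the annotation or the use of strand. Positions came from GENCODE 29, which held 58502 of 60609 identifiers, and symbols from a name table.

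The deposited estimated counts were rounded and tested with edgeR 4.0.16 (quasi-likelihood F test, default filterByExpr, TMM, Benjamini-Hochberg over 15958 genes, threshold 0.05, R 4.3.3). Ratios and shares of TPM used exact permutation tests over libraries. Replicates differed by more than sampling noise (chi-square per degree of freedom 2.45 to 7.50). The test was checked on simulated counts. Alternatives were no filter, DESeq2 1.42.0, RLE scaling, voom in limma 3.58.1, 1 CPM in 3 libraries, offsets for effective length or for length and GC content, limma on log2(TPM + 1) and log2(TPM + 0.1), a replicate block, and each library left out.

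Members, lists and tests were chosen with earlier results of these data known. Named genes were all members, 12 fixed genes of the axis, up to 3 with the smallest p per list and direction, and the 3 most like INSR.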

Additional observations from a re-analysis of the deposited data

How the results depend on the processing

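Among 16 alternatives, the call of INSR held in all, with log2 fold changes of −0.44 to −0.16. The 3 members called became 1 (INSR) with effective-length offsets, with length and GC offsets, and on log2(TPM + 1) and log2(TPM + 0.1), and 1 to 3 when 1 library was left out. Genes called numbered 3742, against 1750 with effective-length offsets, 1623 on log2(TPM + 1), 1622 on log2(TPM + 0.1) and 2618 to 3575 with 1 library left out. Pathway genes called numbered 36, against 14, 9 and 10 under these same 3 scales and 24 to 38 with 1 library left out. Of the genes called, 51.4% were higher in the knockout, against 60.9% with effective-length offsets and 30.1% and 29.8% on the TPM scales, where the median of all genes was −0.059 and −0.067. The causes were not tested.

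Signs turned, without passing the test, for these log2 fold changes: with effective-length offsets IGF1R 0.11, STC2 −0.023 and CISH −0.00024; with length and GC offsets IGF1R 0.044, IGF2R 0.030, IRS2 0.062 and IGF2 0.093. On log2(TPM + 1) they turned for IGF1R 0.0040, STC2 −0.098 and CISH −0.057, and on log2(TPM + 0.1) for IGF1R 0.0032, STC2 −0.099 and CISH −0.092. With 1 library left out the values ran from −0.11 to 0.060 for IGF2, from −0.056 to 0.13 for CISH and from −0.18 to 0.023 for IGFBP4. Of 144 values for members, 119 kept direction and side of the threshold, 14 lost the call and 11 turned; of 463 for other named genes, 357 kept, 97 lost and 9 turned.

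With 1 library left out, the differences were 0.31 to 0.55 for the log2 IGF1R to INSR ratio, 0.16 to 0.33 percentage points for the IRS1 share and 0.24 to 1.86 for the IGFBP2 share. Deviations of same-numbered libraries from their group means had correlations of 0.0038, 0.10 and 0.042. The same number correlated best for knockout replicates 2 and 3, but for knockout replicate 1 wild-type replicate 3 did (0.052). With 3 libraries per group, such correlations cannot decide whether the numbers mark shared batches. With the replicate block, 3660 genes, 3 members and 31 pathway genes passed. Count sums of 178 to 648 per group limit the low members, and IGFALS is below the floor of 3 counts.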
